A study of Mus musculus with 9 samples.

Results

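The genes described here are 8 genes known for the specification of primordial germ cells: Prdm1, Prdm14, Tfap2c, Dppa3, Nanos3, Dnd1, Kit and Ifitm3. They were taken by symbol from a table of expected read counts that holds 23453 gene symbols, and all 8 were in it, each with a value in all 9 libraries. The libraries are bulk RNA-seq of total RNA from cultured wild-type mouse cells in 3 states, with 3 libraries a state. EpiLCs (epiblast-like cells) were made from naive embryonic stem cells in 48 h of culture in N2B27 medium with KSR (a serum replacement), FGF2 and Activin A. aEpiLCs were EpiLCs cultured for a further 24 h in the basal N2B27 medium with KSR, with neither Activin nor FGF2 added. pEpiLCs were EpiLCs cultured for the same 24 h with Activin and CHIR99021, an agonist of the Wnt/β-catenin pathway, and also without FGF2. Each comparison with EpiLCs therefore also carries the loss of FGF2 and 24 h more culture, which cannot be told apart here. Every library thus came from cells that had passed through the EpiLC culture, and no library is of germ cells or of cells treated with BMP4, the signal used to induce them. The text names no cell line for these libraries and does not say whether the replicates were separate cultures, so the p-values measure the spread between these libraries, which may be technical.

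Primordial germ cells are the founders of the germ line. In the mouse they arise from the proximal posterior epiblast, where BMP4 and BMP8B from the extraembryonic ectoderm and WNT3 induce a few cells to switch on PRDM1, PRDM14 and TFAP2C, a set of transcription factors that hold down the somatic programme and restore pluripotency genes. EpiLCs are used as the starting population for germ-cell-like cells in culture. Of the other members, Dppa3 (Stella) codes for a protein that guards maternal methylation in the zygote and marks early germ cells, Nanos3 and Dnd1 code for RNA-binding proteins that keep germ cells alive, Kit codes for the receptor of stem cell factor, through which migrating germ cells receive survival signals, and Ifitm3 (Fragilis) codes for an interferon-induced membrane protein that marks cells competent for the germ line.

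The promoter sequences are shown first, because the members differ widely in level and the sequence around a start site is one property that the choice of genes did not use. RefSeq start sites (GRCm38.p6) were at hand for Kit, Ifitm3, Nanos3 and Prdm1, 4 of the 8 members. The bases before the start are printed 5′ to 3′ on the gene's strand, as far as they lie in no annotated exon, with each CpG in capitals, for a member with a high level in pEpiLCs (Kit), one that changed between states (Prdm1) and one near the detection limit (Nanos3). The Kit stretch lies at chr5:75574737-75574915 on the plus strand and the Prdm1 stretch at chr10:44458749-44458998 on the minus strand, inside an intron of a longer Prdm1 transcript. The Nanos3 stretch lies at chr8:84176553-84176802 on the minus strand, also within a longer transcript of its own gene.
Kit: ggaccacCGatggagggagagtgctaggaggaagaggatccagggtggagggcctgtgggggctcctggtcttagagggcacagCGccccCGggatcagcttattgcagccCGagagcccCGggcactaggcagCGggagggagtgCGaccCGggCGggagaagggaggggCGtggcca
Prdm1: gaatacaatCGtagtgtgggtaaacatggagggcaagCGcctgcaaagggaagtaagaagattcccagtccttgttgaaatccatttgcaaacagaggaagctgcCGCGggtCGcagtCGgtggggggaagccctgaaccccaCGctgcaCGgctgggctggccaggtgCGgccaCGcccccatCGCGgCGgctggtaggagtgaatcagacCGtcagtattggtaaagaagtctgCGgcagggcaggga
Nanos3: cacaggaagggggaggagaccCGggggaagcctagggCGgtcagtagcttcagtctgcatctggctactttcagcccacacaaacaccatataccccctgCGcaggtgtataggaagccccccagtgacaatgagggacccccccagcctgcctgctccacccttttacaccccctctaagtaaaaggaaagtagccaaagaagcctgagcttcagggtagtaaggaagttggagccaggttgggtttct
The window of 300 bases around each start held 20 CpG for Prdm1, 20 and 21 for the 2 start sites listed for Kit, 5 for Ifitm3 and 3 for Nanos3, where the median over 32851 such windows was 7 and the quartiles were 3 and 20. Kit and Prdm1 were thus at the upper quartile and Nanos3 was at the lower one. None of these windows held, on either strand, the TCF/LEF core CTTTGA, the T-box site TCACACC, the octamer ATGCAAAT or the E-box CACGTG, which were found in 16.0%, 3.98%, 1.74% and 7.15% of all windows.

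Library size was even, with total counts between 20560564 and 23417917. A count of 3, taken as the detection limit, corresponded to 0.130 to 0.143 CPM (counts scaled to library size, with TMM factors over the 9 libraries). Otx2, a regulator of the postimplantation epiblast, was at 91.0 to 98.7 CPM in EpiLCs, 141 to 149 CPM in aEpiLCs and 64.8 to 76.2 CPM in pEpiLCs, and T (brachyury), which marks the primitive streak, was at 1087, 204 and 219 CPM in pEpiLCs and at most 1.22 CPM elsewhere. pEpiLC replicate 1 stood apart. Against each of the other pEpiLC libraries, 324 and 333 genes differed by more than 4-fold, where 57 to 76 genes differed in the other pairs of replicates. The summed level of 10 visceral or definitive endoderm markers was 145 CPM in this library and 53.2 and 44.2 CPM in replicates 2 and 3, against 12.7 to 12.9 CPM in EpiLCs and 16.0 to 19.0 CPM in aEpiLCs. Foxa2 alone was at 34.0 to 62.8 CPM in pEpiLCs, and the other 9 markers summed to 10.2 to 81.8 CPM there. Gata6, one of these markers, was at 46.5 CPM in pEpiLC replicate 1 and at or under the detection limit in the other pEpiLC libraries. In EpiLCs, aEpiLCs and pEpiLCs the 9 trophoblast markers summed to 57.5 to 75.0, 153 to 182 and 69.6 to 71.2 CPM, and the 8 blood and endothelial markers to 19.6 to 24.9, 7.51 to 10.1 and 6.80 to 15.1 CPM, highest among pEpiLCs in replicate 1. The 7 surface ectoderm and neural crest markers summed to 35.3 to 46.2, 38.5 to 51.4 and 3.00 to 9.47 CPM, and the 6 feeder fibroblast markers in the table to 33.2 to 34.8, 41.3 to 44.7 and 43.4 to 63.9 CPM. These sums were also taken without the marker most abundant over all 9 libraries, which was not the most abundant in every state. Krt18 was above Krt8 in EpiLCs (means of 37.9 and 21.5 CPM). Pecam1, at a mean of 1.76 CPM in both later states, was below Runx1 in aEpiLCs (3.00 CPM) and Lmo2 in pEpiLCs (2.86 CPM). In the same order of states, the trophoblast markers without Krt8 summed to 38.8 to 50.6, 62.1 to 76.4 and 24.5 to 32.8 CPM, and the blood and endothelial markers without Pecam1 to 9.05 to 10.3, 5.82 to 8.41 and 4.83 to 14.2 CPM. The surface ectoderm and neural crest markers without Foxd3, which was at 0.0477 CPM in pEpiLC replicate 1, summed to 2.03 to 2.52, 2.47 to 4.04 and 2.09 to 3.40 CPM, and the feeder fibroblast markers without Fbn1 to 19.8 to 22.5, 20.5 to 24.2 and 13.4 to 19.7 CPM. Tfap2b was at 0 counts in all EpiLC and pEpiLC libraries and Elf5 in all EpiLC libraries. For the members, and for listed genes whose value it moves most, pEpiLC results are therefore also given without this library.

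Per length, Ifitm3 had the highest level of the members in every state and Prdm14 the lowest. On the scale of CPM per kb of exon, Ifitm3 was at 70.7 ± 8.15 in EpiLCs (SD, n = 3), 65.0 ± 6.95 in aEpiLCs and 60.5 ± 5.47 in pEpiLCs. Dnd1 was second, at 3.94 ± 0.229, 4.93 ± 0.446 and 6.33 ± 0.390 CPM per kb in the same order, and Kit came next, at 1.11 ± 0.0901, 2.41 ± 0.397 and 4.73 ± 0.498. In EpiLCs the libraries of Kit overlapped those of Dppa3 (0.928 ± 0.205 CPM per kb), so their order is within the spread, as is that of Prdm1 (0.324 ± 0.111) and Tfap2c (0.251 ± 0.116). In aEpiLCs the members below Kit formed a chain in which each overlapped its neighbour, from Dppa3 (0.327 ± 0.135 CPM per kb) through Tfap2c (0.168 ± 0.0924), Prdm1 (0.0830 ± 0.0449) and Nanos3 to Prdm14. In pEpiLCs the order below Kit was Tfap2c (0.901 ± 0.623 CPM per kb), Prdm1 (0.352 ± 0.339), Nanos3, Dppa3 (0.134 ± 0.0989) and Prdm14, and again each overlapped its neighbour.

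**Figure D1:**
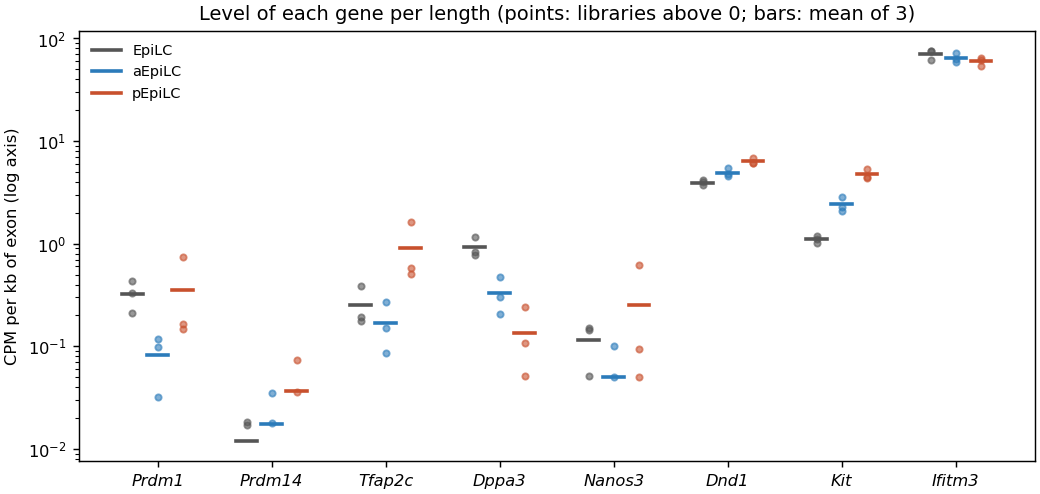
Level of the 8 members in CPM per kb of exon on a log axis, in EpiLCs, aEpiLCs and pEpiLCs; points are libraries above 0 and bars are the mean of 3 libraries. Ifitm3 lies at about the same level in each state (60.5 to 70.7), Kit and Dnd1 climb from EpiLC to pEpiLC, and the 5 other members lie at or below about 1 CPM per kb on average.

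Of the 8 members, 6 passed the filter on low counts in the comparison of pEpiLCs with EpiLCs. Kit and Tfap2c were called higher in pEpiLCs and Dppa3 was called lower, where a call means at least a 2-fold difference (1 on the log2 scale) with a Benjamini-Hochberg adjusted p under 0.05 in edgeR's quasi-likelihood test, adjusted over all genes tested. Over the 15288 genes tested in this comparison, 7.71% were called higher and 8.13% lower. In aEpiLCs against EpiLCs, Kit was called higher and Dppa3 and Prdm1 lower among the 6 members tested, with 7.25% of 15301 genes called higher and 5.24% lower. In pEpiLCs against aEpiLCs, Tfap2c was called higher and none was called lower among the 5 members tested, with 2.55% of 15198 genes called higher and 4.74% lower. By edgeR's test 0 members were lower there at an unadjusted p under 0.05 as well, and DESeq2 called 0 lower. The libraries of the states did not overlap for 4 members tested in each comparison, and the same held for 58.7% of all genes tested in pEpiLCs against EpiLCs, 56.3% in aEpiLCs against EpiLCs and 38.8% in pEpiLCs against aEpiLCs. The exact permutation test of 3 libraries against 3 cannot give a two-sided p below 0.1, and it gave 0.1 for each member whose libraries did not overlap. In bulk RNA, more cells of a kind and more RNA per cell cannot be told apart, which holds for each of these differences.

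**Figure D2:**
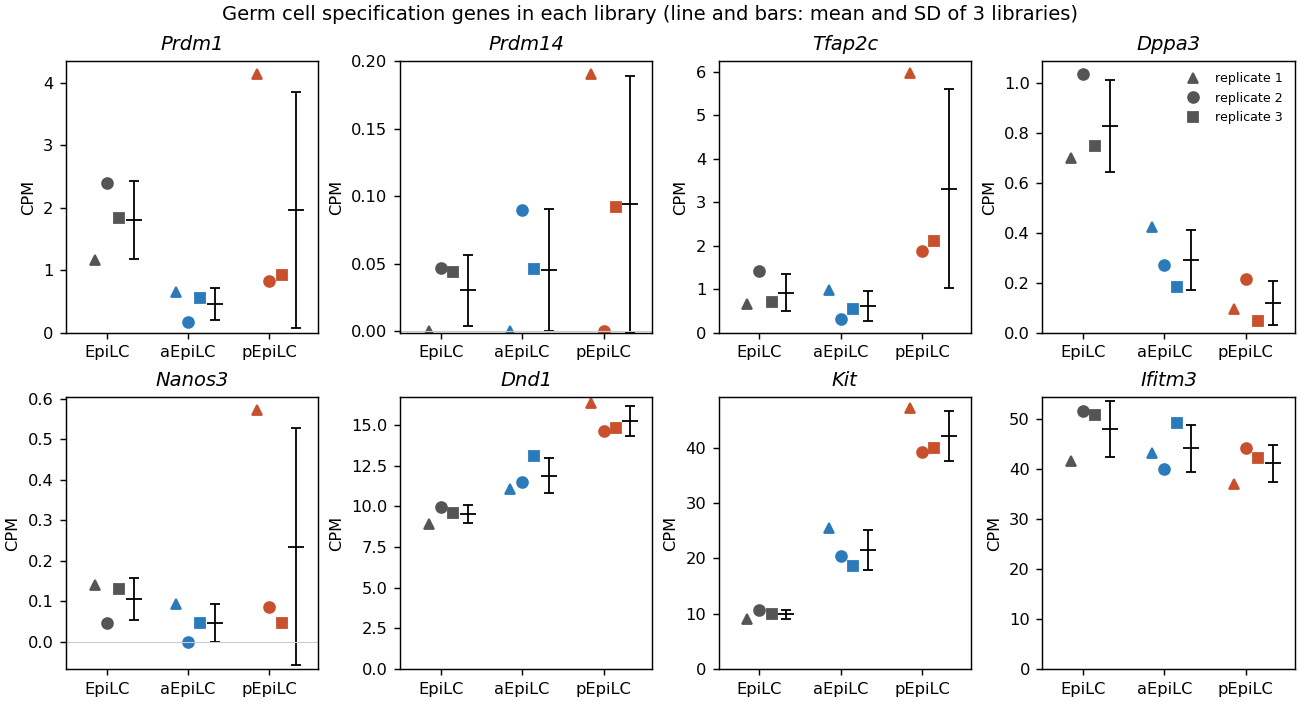
CPM of each member in every library, with a vertical axis of its own for each gene; triangles, circles and squares are replicates 1, 2 and 3, and the line with bars is the mean and SD of 3 libraries. Kit rises over the 3 states without overlap, Dppa3 falls, and the pEpiLC triangle stands above the other pEpiLC libraries for Prdm1, Tfap2c and Nanos3.

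Prdm1, Prdm14 and Tfap2c, the transcription factors that act first, showed 3 different pictures. Prdm1 (BLIMP1, a repressor with a SET-related domain; GRCm38 chr10:44437177-44528501, minus strand) had 1.17, 2.40 and 1.85 CPM in EpiLC replicates 1 to 3. It had 0.657, 0.180 and 0.552 CPM in aEpiLCs and 4.15, 0.826 and 0.919 CPM in pEpiLCs. The aEpiLC libraries were all below the EpiLC libraries, and the pEpiLC libraries were split, with replicate 1 above every other library and replicates 2 and 3 between the other states.

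In aEpiLCs Prdm1 was lower than in EpiLCs by a log2 fold change of -1.95 (SE 0.43, adjusted p = 0.00214), with pooled counts of 30 against 118. It was called in all 13 alternative analyses that could test it, with adjusted p from 1.75e-05 to 0.0491. In pEpiLCs against EpiLCs the log2 fold change was 0.14 (SE 0.63, adjusted p = 0.877). Without pEpiLC replicate 1 the same comparison gave -1.02 (SE 0.37, adjusted p = 0.0297), a call in the opposite direction, where 7.05% of 15699 genes were called higher and 8.33% lower. Over 14 alternatives the adjusted p of this comparison ran from 0.0297 to 0.932. In pEpiLCs against aEpiLCs the libraries did not overlap and the log2 fold change was 2.07 (SE 0.76), but the adjusted p was 0.109. Without pEpiLC replicate 1 it was 0.92 (SE 0.51, adjusted p = 0.232), and the alternatives gave adjusted p from 0.0335 to 0.281. Of these 13 alternatives 3 called Prdm1 higher in pEpiLCs, namely DESeq2 (adjusted p = 0.0335), the likelihood ratio test (0.0362) and the replicate block (0.0462).

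Tfap2c (AP-2γ; chr2:172549593-172558622, plus strand) was the member highest in pEpiLCs relative to aEpiLCs. It had 0.653, 1.41 and 0.703 CPM in EpiLCs, 0.985, 0.315 and 0.552 CPM in aEpiLCs, and 5.96, 1.87 and 2.11 CPM in pEpiLCs. All pEpiLC libraries were above all others, replicate 1 by the widest margin, and the EpiLC and aEpiLC libraries overlapped. The log2 fold change was 1.86 (SE 0.54, adjusted p = 0.0262) against EpiLCs and 2.42 (SE 0.59, adjusted p = 0.0318) against aEpiLCs. It was -0.58 (SE 0.46, adjusted p = 0.322) in aEpiLCs against EpiLCs.

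Without pEpiLC replicate 1, Tfap2c stayed called in both comparisons, at 1.13 (SE 0.36, adjusted p = 0.0154) against EpiLCs and 1.69 (SE 0.42, adjusted p = 0.0138) against aEpiLCs. In that fit 2.51% of 15485 genes were called higher in pEpiLCs than in aEpiLCs and 4.90% lower. Against EpiLCs the adjusted p was 0.0947 without EpiLC replicate 1, 0.0975 without EpiLC replicate 3 and 0.0514 with the replicate block (log2 fold change 1.72). Against aEpiLCs it was 0.0599, 0.121 and 0.119 without aEpiLC replicates 1, 2 and 3. Over all alternatives the log2 fold change stayed between 1.13 and 2.30 against EpiLCs and between 1.69 and 2.92 against aEpiLCs.

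Prdm14, a PR-domain regulator that represses FGF signalling and de novo methylation in germ cells and in naive stem cells (chr1:13113457-13127163, minus strand), was close to absent from the counts. It had 0, 1 and 1 counts in EpiLCs, 0, 2 and 1 in aEpiLCs and 4, 0 and 2 in pEpiLCs. No library but pEpiLC replicate 1 was above 3 counts, so no fold is given, and a difference between states was not detectable at this depth.

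**Figure D3:**
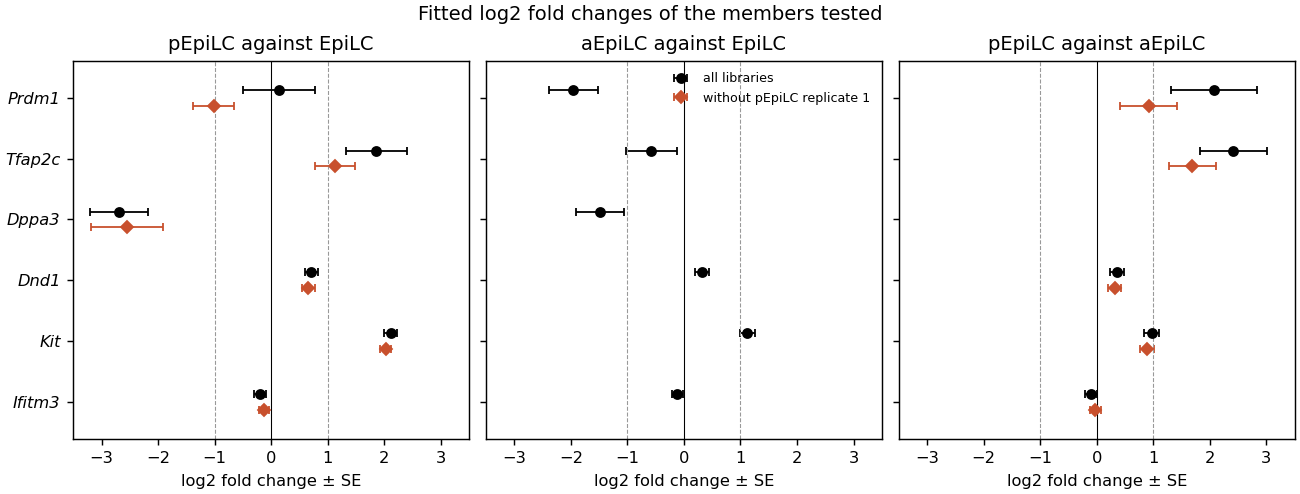
Fitted log2 fold change with its SE for each member tested in the 3 comparisons; black circles use all libraries, red diamonds leave out pEpiLC replicate 1, and dashed lines mark a log2 fold change of 1 in either direction. Prdm1 moves from 0.14 to -1.02 in pEpiLC against EpiLC when that library is left out, and from 2.07 to 0.92 against aEpiLC. Tfap2c moves from 1.86 to 1.13 and from 2.42 to 1.69 in the same comparisons, while Kit, Dnd1 and Dppa3 stay near their values.

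Dppa3, Nanos3 and Dnd1 are switched on or retained in germ cells once they are specified, and of them Dppa3 fell in both later states. Dppa3 (chr6:122626410-122630272, plus strand) had 15, 22 and 17 counts in EpiLCs, or 0.700, 1.04 and 0.747 CPM. It had 9, 6 and 4 counts in aEpiLCs, or 0.422, 0.270 and 0.184 CPM, and 2, 5 and 1 counts in pEpiLCs, or 0.0953, 0.217 and 0.0460 CPM. Every EpiLC library was above every later one, and the aEpiLC and pEpiLC libraries overlapped.

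Against EpiLCs the log2 fold change of Dppa3 was -1.48 in aEpiLCs (SE 0.43, adjusted p = 0.0121) and -2.69 in pEpiLCs (SE 0.52, adjusted p = 0.00510), and the gene passed the filter on the strength of the EpiLC counts. As a ratio of pooled counts scaled for library size, EpiLCs had 2.84 times the aEpiLC level (95% counting interval 1.65 to 5.07, exact binomial) and 6.78 times the pEpiLC level (3.21 to 16.5). Dppa3 was called in pEpiLCs in all 13 alternatives that could test it, with adjusted p from 4.93e-06 to 0.0269, and log2 fold changes of -2.55, -3.43 and -2.32 without pEpiLC replicates 1, 2 and 3. The call in aEpiLCs was lost with DESeq2 (adjusted p = 0.0594), without EpiLC replicate 2 (0.0642) and without aEpiLC replicate 3 (0.0534), over a range of 0.00190 to 0.0642. Between the later states Dppa3 did not pass the filter, and the ratio of aEpiLC to pEpiLC was 2.39 (counting interval 1.00 to 6.32). The summed level of 10 naive stem cell markers also differed between the states, at 412 to 456 CPM in EpiLCs, 73.9 to 86.9 CPM in aEpiLCs and 109 to 113 CPM in pEpiLCs, with none of the 10 at 0 in all libraries of a state. Dppa5a made up most of this sum in EpiLCs, at 366 to 404 CPM, and without it the other 9 summed to 45.3 to 52.0 CPM in EpiLCs, 29.5 to 34.1 CPM in aEpiLCs and 33.1 to 58.0 CPM in pEpiLCs, where the ranges of EpiLCs and pEpiLCs overlap. Of the markers tested against EpiLCs, 2 of 9 were called lower in pEpiLCs, and 4 of 8 were called lower and 1, Klf2, higher in aEpiLCs. Dppa3 is itself expressed in naive stem cells, and the part of remaining naive cells in its level was not tested.

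Nanos3 (chr8:84173731-84185217, minus strand) had 3, 1 and 3 counts in EpiLCs, 2, 0 and 1 in aEpiLCs and 12, 2 and 1 in pEpiLCs. It was at or under the detection limit in 8 of 9 libraries and did not pass the filter. Without a filter its log2 fold change in pEpiLCs had an adjusted p of 0.460 against EpiLCs and 0.329 against aEpiLCs. The exception was again pEpiLC replicate 1, at 0.572 CPM, with 12 counts against 3 in the other pEpiLC libraries together, a ratio that counting error alone leaves between 2.30 and 47.1 (95% interval).

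Dnd1 (chr18:36763671-36766214, minus strand) had 8.91, 9.99 and 9.62 CPM in EpiLCs, 11.1, 11.5 and 13.1 CPM in aEpiLCs and 16.3, 14.6 and 14.8 CPM in pEpiLCs. The states did not overlap, in the order EpiLC, aEpiLC, pEpiLC. The changes were small. Dnd1 was 1.63-fold higher in pEpiLCs than in EpiLCs (log2 fold change 0.71, SE 0.11, adjusted p = 0.00266), which passed the limit on p but not that on fold. In aEpiLCs it was higher by a log2 fold change of 0.32 (SE 0.12, adjusted p = 0.0408, 0.0324 to 0.143 over the alternatives), and between the later states by 0.36 (SE 0.12, adjusted p = 0.0854). The values were 0.66 (SE 0.12) against EpiLCs and 0.31 (SE 0.12) against aEpiLCs when pEpiLC replicate 1 was left out. The exons of Dnd1 share 140 bp with those of Wdr55 on the opposite strand, and whether the libraries were stranded is not given in the sources used here, so some of the reads may belong to Wdr55.

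Kit and Ifitm3 code for proteins at the cell surface and in membranes, and the former showed the clearest change of all the members. Kit (chr5:75574916-75656722, plus strand) had 9.09, 10.7 and 9.89 CPM in EpiLCs, 25.5, 20.4 and 18.7 CPM in aEpiLCs and 47.2, 39.2 and 39.9 CPM in pEpiLCs. The libraries of the 3 states were fully separated, and pEpiLC replicate 1 was only 1.19 times the pooled level of the other pEpiLC libraries (95% counting interval 1.10 to 1.29).

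Kit was 2.18-fold higher in aEpiLCs than in EpiLCs (log2 fold change 1.12, SE 0.13, adjusted p = 1.32e-05) and 4.32-fold higher in pEpiLCs (2.11, SE 0.11, adjusted p = 3.91e-05). The level in pEpiLCs was 1.96-fold that in aEpiLCs (0.97, SE 0.14, adjusted p = 0.00467), just under the limit on fold. Without pEpiLC replicate 1 these last values were 2.03 (SE 0.10) against EpiLCs and 0.89 (SE 0.12) against aEpiLCs. Of 14 alternatives 3 called Kit higher in pEpiLCs than in aEpiLCs. They were the fits without aEpiLC replicate 1 (1.11), pEpiLC replicate 2 (1.02) and pEpiLC replicate 3 (1.01). Kit was called against EpiLCs in 14 of 14 alternatives in pEpiLCs and in 13 of 14 in aEpiLCs, the exception being the fit without aEpiLC replicate 1, where the log2 fold change was 0.99.

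Kitl, the ligand of the KIT receptor, was called higher in aEpiLCs than in EpiLCs, with 1.45, 0.990 and 1.54 CPM in EpiLCs and 5.54, 3.96 and 3.59 CPM in aEpiLCs (log2 fold change 1.71, SE 0.25, adjusted p = 0.000106). In pEpiLCs it had 5.62, 1.17 and 0.965 CPM, so that replicate 1 lay with the aEpiLC libraries and replicates 2 and 3 with the EpiLC libraries. Between pEpiLCs and aEpiLCs its log2 fold change was -0.76 (SE 0.62, adjusted p = 0.457), and -2.01 (adjusted p = 0.000390) without pEpiLC replicate 1.

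Ifitm3 (chr7:141009586-141010770, minus strand), the member with the highest level per kb, had 41.6, 51.4 and 50.8 CPM in EpiLCs, 43.2, 39.9 and 49.2 CPM in aEpiLCs and 36.9, 44.2 and 42.1 CPM in pEpiLCs. All 3 states overlapped. The log2 fold change was -0.20 (SE 0.11, adjusted p = 0.172) in pEpiLCs and -0.12 (SE 0.10, adjusted p = 0.331) in aEpiLCs against EpiLCs, and -0.10 (SE 0.11, adjusted p = 0.565) between the later states. Leaving out pEpiLC replicate 1 gave -0.13 (SE 0.09) against EpiLCs and -0.03 (SE 0.09) against aEpiLCs. Ifitm1, its neighbour in the Ifitm cluster and also high in early germ cells, had 7.65, 6.83 and 7.82 CPM in EpiLCs, 4.32, 3.28 and 3.68 CPM in aEpiLCs and 41.6, 9.56 and 13.1 CPM in pEpiLCs. It was called higher in pEpiLCs than in EpiLCs at a log2 fold change of 1.55 (SE 0.51, adjusted p = 0.0417), which was 0.63 without pEpiLC replicate 1 and then missed the limit on fold. Genes of this family are alike in sequence, and how reads were divided among them by the authors' counting cannot be checked here.

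The members did not depart alike in pEpiLC replicate 1, the library that stood apart. Prdm1 was at 4.76 times the pooled level of replicates 2 and 3 (95% counting interval 3.23 to 7.13) and Tfap2c at 3.00 times (2.27 to 3.98), while Dnd1 was at 1.11 times (0.972 to 1.27) and Ifitm3 at 0.856 times (0.787 to 0.931). Among 15797 genes, 3.79% were more than 2-fold above both other pEpiLC libraries in this library and 4.55% more than 2-fold below. T, which activates Prdm1 and Prdm14 in the making of germ cells, was at 5.14 times the pooled level (5.02 to 5.26), and Nanog at 0.418 times (0.399 to 0.438). These intervals cover counting error only. The part of endoderm or mesoderm cells in the departure of Prdm1, Tfap2c and Nanos3 was not tested.

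**Figure D4:**
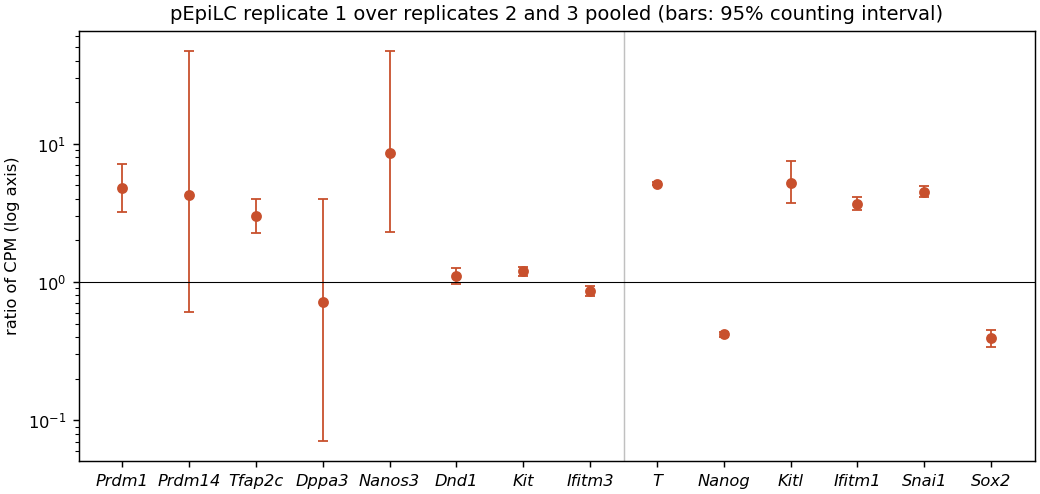
Ratio of CPM in pEpiLC replicate 1 to that of pEpiLC replicates 2 and 3 pooled, on a log axis with 95% counting intervals, for the 8 members (left of the line) and 6 listed genes (right). Prdm1, Tfap2c and Nanos3 lie above 1 with T, Kitl, Ifitm1 and Snai1, Nanog and Sox2 lie below 1, and Dnd1, Kit and Ifitm3 lie near 1.

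The genes whose pattern over the 9 libraries was most like that of a called member were taken by the root mean square difference of centred log2 CPM, among 15797 genes. For Kit they were Slit3 (difference 0.08), Dock11 (0.13) and Crb2 (0.15). Slit3, which codes for a guidance ligand, had mean levels of 21.6, 49.8 and 92.9 CPM in EpiLCs, aEpiLCs and pEpiLCs. For Tfap2c they were Hes1 (0.26), Apod (0.33) and Gm11953 (0.35), and Hes1, a repressor downstream of Notch, had means of 10.8, 9.61 and 40.8 CPM. For Dppa3 they were Lpar5 (0.19), Gm128 (0.22) and Crybb3 (0.25), and for Prdm1 Mmrn2 (0.44), Tns4 (0.45) and Gm37677 (0.46). The likeness was closest for Kit, which had the most counts, and least close for Prdm1.

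Around the members, 5 lists of genes were counted, of which the first holds the signals towards germ cell fate. Of its 17 genes (BMP and WNT ligands, BMP receptors, SMADs and Id targets), 14 were tested against EpiLCs. In pEpiLCs 4 were called higher and 2 lower, with a median log2 fold change of 0.36 against 0.02 over all genes tested, and in aEpiLCs 3 were called higher and 2 lower (median 0.25 against 0.00). Wnt3, the ligand needed for germ cell competence, rose from 5.88, 3.54 and 4.83 CPM in EpiLCs to 93.8, 54.7 and 61.6 CPM in pEpiLCs (log2 fold change 3.90, SE 0.26, adjusted p = 9.79e-05, and 3.64 without replicate 1). The BMP target Id3 rose in both later states, by 1.82 (SE 0.30) in pEpiLCs (1.38 without replicate 1) and 1.75 (SE 0.15) in aEpiLCs. In pEpiLCs Id1 was not called (1.81, adjusted p = 0.0608, and 0.52 without replicate 1), nor was Id2 (-0.60, adjusted p = 0.0977). Bmp8b and Smad9 fell in both later states. Smad9 had 14, 32 and 24 counts in EpiLCs, 3, 3 and 11 in aEpiLCs and 4, 2 and 4 in pEpiLCs. It passed the filter on its EpiLC counts. Bmp8b, a ligand for germ cell induction, had a log2 fold change of -1.35 (SE 0.18) in pEpiLCs and -1.26 (SE 0.20) in aEpiLCs. Smad1 was called higher in pEpiLCs at 1.41 (SE 0.42, adjusted p = 0.0295), and at 0.67 without replicate 1, where 2 genes of the list were called higher and 2 lower. Bmpr1b (1.50, SE 0.19) and Id1 (1.09, SE 0.25) were called higher in aEpiLCs. Between the later states Wnt3 was called higher in pEpiLCs and Bmpr1b and Id2 lower, of 14 tested, and without pEpiLC replicate 1 Wnt3 alone was called.

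All 10 partners and direct regulators of the members were tested, among them Prmt5, which works with PRDM1, Cbfa2t2, which works with PRDM14, and Lin28a, which acts before Prdm1 by way of let-7. Only T was called in pEpiLCs against EpiLCs, at a log2 fold change of 10.69 (SE 1.12, adjusted p = 0.000488) and at 9.44 without replicate 1, and only Kitl in aEpiLCs against EpiLCs. T had 10, 0 and 10 counts in EpiLCs and 26, 19 and 13 in aEpiLCs, so the size of its fold rests on few reads in those states. The medians of the list were -0.03 in pEpiLCs and 0.03 in aEpiLCs. For all genes tested, 7.71% were called higher in pEpiLCs and 7.25% in aEpiLCs. Against aEpiLCs, T was called higher in pEpiLCs, and without pEpiLC replicate 1 Kitl was also called, as lower.

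Of 20 other genes that are high in early germ cells, many of them pluripotency factors, 18 were tested against EpiLCs. In pEpiLCs Nanog and Ifitm1 were called higher and 4 genes lower, and in aEpiLCs Klf2 was called higher and 4 genes lower, with medians of -0.27 and -0.31. Over all genes tested, the shares called higher and lower were 7.71% and 8.13% in pEpiLCs and 7.25% and 5.24% in aEpiLCs. Nanog, which can stand in for BMP4 in making germ-cell-like cells from EpiLCs, had 17.6, 17.1 and 17.1 CPM in EpiLCs and 105, 247 and 255 CPM in pEpiLCs (log2 fold change 3.57, SE 0.33, adjusted p = 0.000279, and 3.89 without replicate 1). Among the genes that fell were the X-linked homeobox genes Rhox5 (-3.75, SE 0.23, in pEpiLCs and -3.13, SE 0.17, in aEpiLCs) and Rhox9 (-1.59, SE 0.43, and -1.49, SE 0.38). Rhox6 fell in pEpiLCs by 2.07 on the log2 scale (SE 0.49), with 21, 22 and 13 counts in EpiLCs and 2, 4 and 7 in pEpiLCs. Zfp42, a naive stem cell gene, fell in aEpiLCs by 1.32 (SE 0.11). Klf2, in turn, rose in aEpiLCs by 1.05 (SE 0.26). Without pEpiLC replicate 1 all 20 genes were tested. Nanog alone was called higher and 6 genes lower, namely Itgb3, Tcl1, Sox2 and the 3 Rhox genes. Rhox5 was then at -3.56, Rhox6 at -1.75 and Rhox9 at -1.30, while Itgb3 and Tcl1 had at most 5 counts in any pEpiLC library. Of 15 tested between the later states, Ifitm1, Nanog and Esrrb were called higher in pEpiLCs and Sox2 and Klf2 lower, also without pEpiLC replicate 1.

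The called genes among the later germ cell genes all fell. Of 11 listed, 10 were in the table and 9 were tested against EpiLCs, of which 7 were called lower in pEpiLCs and 6 in aEpiLCs, with median log2 fold changes of -2.74 and -1.63. Among all genes tested, 8.13% were called lower in pEpiLCs and 5.24% in aEpiLCs. Dazl, an RNA-binding protein gene of germ cells entering the gonad, had 8.40, 7.92 and 7.73 CPM in EpiLCs, 1.31, 1.57 and 1.10 CPM in aEpiLCs and 1.00, 0.782 and 0.781 CPM in pEpiLCs. Tuba3a, a testis tubulin gene, had a log2 fold change of -3.45 (SE 0.18) in pEpiLCs and -3.39 (SE 0.18) in aEpiLCs. Tex101 had 1.21, 1.65 and 1.49 CPM in EpiLCs and was at or under the detection limit in 5 of the 6 later libraries. The direction was that of Dppa3 and opposite to that of Kit. Without pEpiLC replicate 1 again 7 were called lower. Of 7 tested between the later states, Piwil2 alone was called, lower in pEpiLCs, with and without that library.

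The last list holds 14 genes that are lowered in germ cell specification or opposed to it, of which 13 were tested in pEpiLCs and 12 in aEpiLCs against EpiLCs. In pEpiLCs 6 were called lower and 2 higher (median -0.78), and 4 lower and 2 higher without replicate 1. In aEpiLCs 1 was called lower and 2 higher (median 0.19). The shares of all genes called lower and higher were 8.13% and 7.71% in pEpiLCs and 5.24% and 7.25% in aEpiLCs. Dnmt3l, a cofactor of de novo DNA methylation, fell in both later states, from 70.0, 69.1 and 80.0 CPM in EpiLCs to 6.24, 8.32 and 10.6 CPM in aEpiLCs and 4.38, 6.08 and 9.33 CPM in pEpiLCs. Pou3f1 (-2.64, SE 0.45) and Sox3 (-1.78, SE 0.34), both of the anterior and neural epiblast, fell in pEpiLCs, and were at -2.22 and -1.44 without replicate 1. Snai1, a repressor of E-cadherin in the primitive streak that is held down by PRDM1 in germ cells, had 64.5, 14.9 and 13.7 CPM in pEpiLCs and 0.653, 1.27 and 1.45 CPM in EpiLCs. It rose by 4.80 (SE 0.74) in pEpiLCs, and by 3.68 without replicate 1, and by 1.04 (SE 0.30) in aEpiLCs. Fgfr2 rose in aEpiLCs by 2.47 (SE 0.13), and Fgf5, a marker of formative epiblast, rose in pEpiLCs by 1.00 (SE 0.08). Of 12 tested in pEpiLCs against aEpiLCs, 6 were called lower and 1 higher, and 4 lower and 1 higher without pEpiLC replicate 1.

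**Figure D5:**
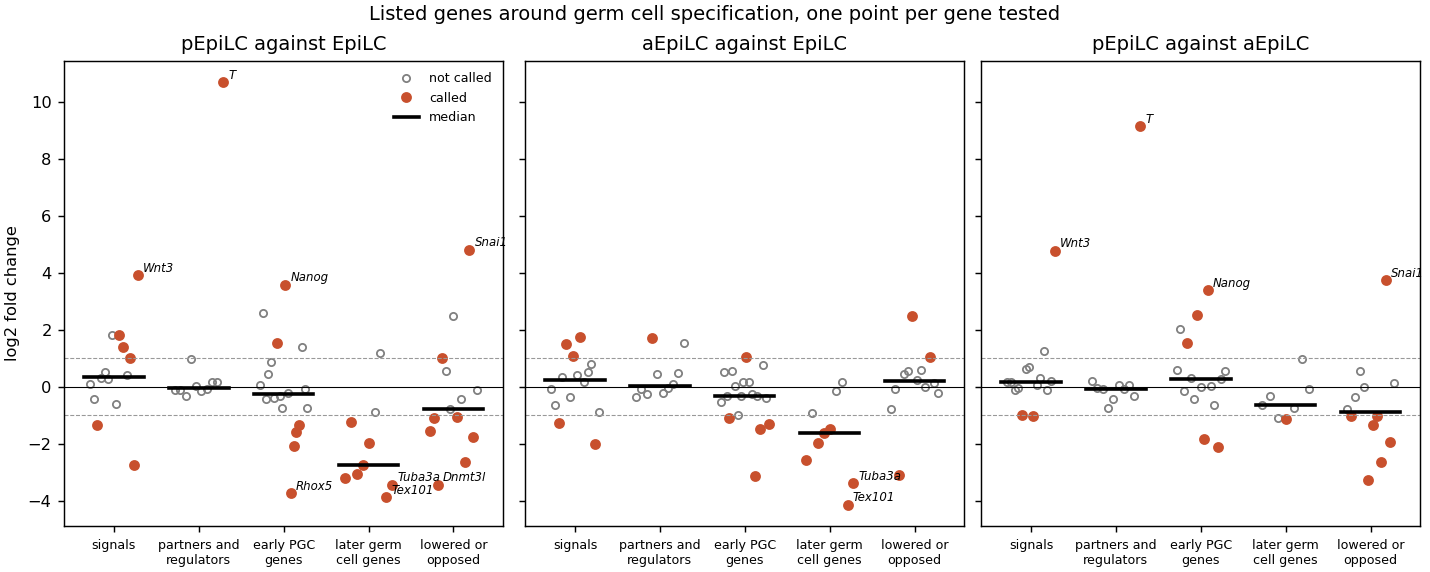
Log2 fold change of each listed gene tested, by list and comparison; filled points were called, open points were not, the black bar is the median of the list and dashed lines mark a log2 fold change of 1 in either direction. In both comparisons with EpiLCs the later germ cell genes lie mostly below 0, and T, Snai1, Wnt3 and Nanog lie highest in pEpiLCs.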

How the data were processed

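Total RNA of 9 libraries was sequenced as paired-end reads, and per the submitters' processing notes the authors used STAR 2.7.9a and RSEM 1.3.1 with GRCm38. The values the authors deposited are RSEM expected counts per gene symbol, without normalization, and they were rounded to whole numbers here. Strandedness, the gene annotation and read cleaning are not given in the sources used here. Total counts lay between 20560564 and 23417917.

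R (4.3.3), edgeR (version 4.0.16 here), DESeq2 (1.42.0) and limma (3.58.1) were run. Each pair of states was fitted on its own 6 libraries and the whole table, with TMM factors, filterByExpr, glmQLFit and glmQLFTest, and p-values were adjusted by Benjamini-Hochberg over all genes tested. Calls needed both an adjusted p under 0.05 and a log2 fold change of 1 or more in size. Standard errors were derived from the F statistic. The steps were tested on simulated data, with changes only in genes of higher count, 1 fixed dispersion and no outlying library. That test does not cover members with few counts, such as Prdm1, Tfap2c and Dppa3. CPM used TMM factors over 9 libraries. Counting intervals are exact binomial at 95% and cover counting error only. Positions and exon lengths came from GENCODE vM21 (97.3% of symbols matched to 1 gene), and promoters from RefSeq.

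The members, the 5 gene lists and the 6 marker lists (naive stem cell, endoderm, trophoblast, blood and endothelial, surface ectoderm and neural crest, feeder fibroblast) were chosen with earlier results of these data known. All 8 members are named with every value. Of each list, the genes named with values are the called ones with the largest absolute log2 fold change against EpiLCs, up to 3 in each direction and comparison, and for each called member the 3 genes with the most similar pattern are named (log2 CPM with a prior count of 2). Other listed genes are named where a count of 5 or fewer turns on them, or were chosen after their values were seen. Alternatives were the likelihood ratio test of edgeR, DESeq2, RLE factors, sample-weighted limma voom, no filter, 10 or more counts in every library, 1 fit of 9 libraries, the replicate number as a block, the adjusted p alone, and leaving out each replicate. The list counts without pEpiLC replicate 1 were added after seeing the data.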

Additional observations from a re-analysis of the deposited data

How the results depend on the processing

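The count of members called in pEpiLCs against EpiLCs was 3, 2 to 4 over the fits without 1 replicate and 4 on the adjusted p alone (Dnd1 added). In aEpiLCs against EpiLCs it was also 3, 2 to 3 without 1 replicate, 4 on the adjusted p alone (Dnd1 added), and 1 when at least 10 counts were required in every library, a filter that left 3 members to test. In pEpiLCs against aEpiLCs it was 1. It was 0 under the filter of 10 counts, which Tfap2c does not pass, 2 with DESeq2 and with the likelihood ratio test (Prdm1 added), and 2 on the adjusted p alone (Kit added). Without 1 replicate it was 0 to 2. It was 0 without aEpiLC replicate 2 or 3, where calls over all genes also fell, from 387 higher and 721 lower to 180 and 334 and to 201 and 382. It was 2 without pEpiLC replicate 2 or 3 (Kit added). Without aEpiLC replicate 1, Kit was called in place of Tfap2c. The log2 fold change of Prdm1 in pEpiLCs against EpiLCs changed sign, to -0.83 with limma voom, -0.09 without EpiLC replicate 1 and -1.02 without pEpiLC replicate 1, and over all fits without 1 replicate it ran from -1.02 to 0.51. No other member changed sign under the alternatives run, and 212 of the single-member values kept their direction and call, while 10 lost a call and 7 gained one, Prdm1 in pEpiLCs against EpiLCs without pEpiLC replicate 1 among them.

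With the replicate number as a block, Prdm1 was at -0.17 in pEpiLCs against EpiLCs, and the members called numbered 2, 3 and 2 in pEpiLCs against EpiLCs, aEpiLCs against EpiLCs and pEpiLCs against aEpiLCs. Tfap2c lost its call against EpiLCs (adjusted p = 0.0514). Against aEpiLCs, Prdm1 gained a call (1.89, SE 0.47, adjusted p = 0.0462) and Tfap2c kept its call (2.37, SE 0.29, adjusted p = 0.00616). Libraries with the same number deviated together in pEpiLCs and aEpiLCs by correlations of 0.06 to 0.17, but by -0.06 to 0.03 in the pairs with EpiLCs, so the numbers were not taken as pairs. With RLE factors the counts were 3, 3 and 1, as with TMM factors. Depth limits Prdm14 and Nanos3, which had 3 counts or fewer in 8 of 9 libraries.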
